A study of Homo sapiens with 10 samples.

Results

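The genes described here are 9 osteoblast lineage genes, which bone-forming cells switch on as they mature. They are the transcription factor genes RUNX2, SP7, MSX2 and DLX5 and the matrix and mineral protein genes ALPL, SPP1, SPARC, BGLAP and IBSP. They were chosen by name, were matched to the count tables by Ensembl identifier, and were all found among the 63299 genes listed. Of the 9 genes, 8 were counted at least once in 1 or more libraries, and 5 passed edgeR's expression filter together with the rest of the 16143 genes tested.

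RNA-sequencing compared U2OS cells, a human osteosarcoma line, after control knockdown (siCtrl, 5 libraries) and after DDX41 knockdown (siDDX41, 5 libraries). DDX41 is a DEAD-box helicase, and the comparison asks how the RNA of these cells changed when it was depleted. Both knockdowns lasted 48 h, used pooled siRNAs and were made in cells kept in growth medium, for which the labels name no bone-inducing agent. The results rest on 1 tumour line and 1 siRNA pool per target, and a knockdown leaves part of the target's RNA. Between 23393764 and 24598860 reads were counted in control knockdown libraries, and between 21807041 and 24896398 in DDX41 knockdown libraries. The labels do not say that replicates came from separate cultures, so p-values measure the spread between these libraries, which may be technical.

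Osteoblasts form from mesenchymal progenitors. RUNX2, bound to its partner CBFB, starts the programme and SP7 (osterix) acts after it, while the homeodomain factors MSX2 and DLX5 act in progenitors and maturing cells. Osteoblasts then lay down type I collagen and SPARC, release phosphate for mineral with the alkaline phosphatase ALPL, and late in maturation secrete IBSP (bone sialoprotein) and BGLAP (osteocalcin), while SPP1 (osteopontin) is a phosphoprotein of bone that many tumour cells also make.

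DDX41 RNA was lower in every DDX41 knockdown library than in every control knockdown library. Control libraries 1 to 5 had 49.1, 49.4, 47.3, 47.2 and 50.5 CPM (counts scaled to library size with TMM factors), and DDX41 knockdown libraries 1 to 5 had 11.5, 13.7, 12.4, 11.2 and 12.3 CPM. The log2 fold change was -1.99 (SE 0.05), and the adjusted p of edgeR's quasi-likelihood test, by the method of Benjamini and Hochberg (BH), was 4.47e-24. The labels of all 10 libraries therefore fit their target gene.

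In control knockdown cells, the lineage genes spanned the whole range of expression. Levels of different genes are given per length, as RPKM (CPM per kilobase of annotated exon), with a percentile among the 29500 genes that had a length and a count in these libraries. SPARC, a collagen-binding matrix glycoprotein, stood at 605 ± 7.07 RPKM (SD, n = 5), at percentile 99.9, and made up between 0.277% and 0.284% of all counts in single control libraries. It was among the 10 genes with the most counts in each of these libraries. Of the 9 lineage genes, 5 reached 1 RPKM.

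RUNX2 followed at 3.95 ± 0.152 RPKM (SD, n = 5), at percentile 72.9. SPP1 stood at 2.62 ± 0.16 RPKM (SD, n = 5), MSX2 at 2.00 ± 0.251 and ALPL at 1.68 ± 0.272, and these fell between percentiles 63.9 and 68.3. The level of SPP1 depends on the length used, and with its longest transcript in place of all exon bases it stood at 4.68 RPKM, at percentile 71.1. With all exon bases as the length, RUNX2 was above SPP1, and SPP1 above MSX2, in every control library. The annotated exons of SPP1 cover 7250 bases, and a shorter length would raise its RPKM. Its place relative to RUNX2 is therefore not settled. MSX2 and ALPL overlapped and cannot be ordered. BGLAP was far lower, at 0.0949 ± 0.0555 RPKM (SD, n = 5). SP7 had 2 counts in the 5 control libraries, and IBSP and DLX5 had 0 counts there. A count of 0 over these libraries allows up to 0.025 CPM, a limit that covers counting error only.

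Type I collagen is built from the products of COL1A1 and COL1A2, and these companion genes lay far apart. COL1A1 stood at 208 RPKM, between SPARC and RUNX2, and COL1A2 at 0.0415 RPKM, where its libraries overlapped those of BGLAP. The RPKM of COL1A1 was a median of 6142 times that of COL1A2 over the 5 control libraries (range 3243 to 9284). As counted, the control libraries thus held much RNA for SPARC and COL1A1, a modest amount for RUNX2, SPP1, MSX2 and ALPL, and few or no reads for SP7, DLX5 and the late genes IBSP and BGLAP.

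**Figure D1:**
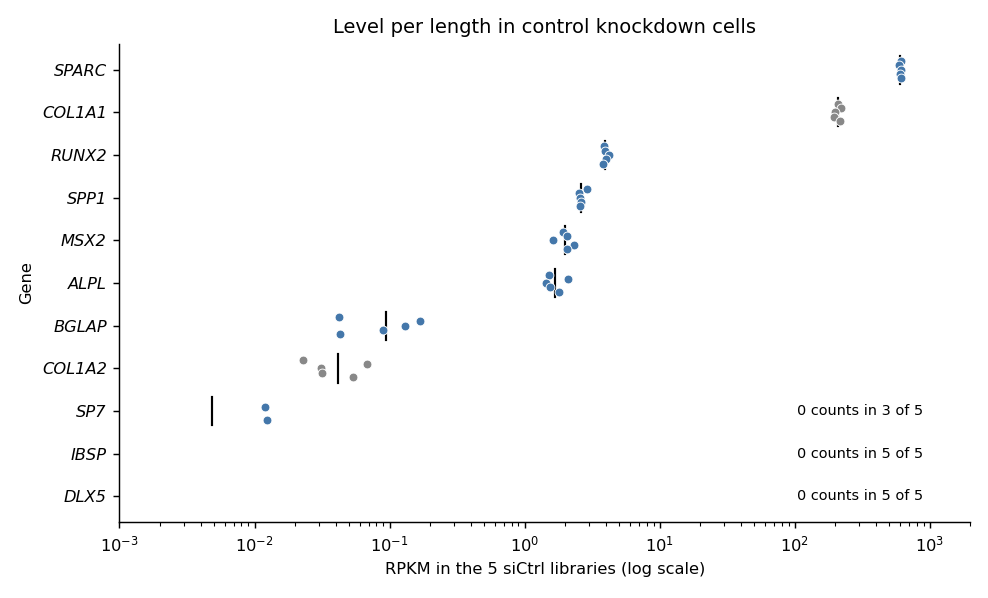
RPKM (log scale) of the 9 lineage genes (blue) and of COL1A1 and COL1A2 (grey) in the 5 siCtrl libraries, with points for libraries and a bar for the mean over all 5. SPARC lies at 605 RPKM, RUNX2, SPP1, MSX2 and ALPL lie between 1.68 and 3.95, and IBSP and DLX5 had 0 counts in all 5 libraries.

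A listed 0 was not read as proof of absence. LRP6, a WNT co-receptor gene, was listed at 0 in all 10 libraries, as were KANSL1 and TAP1. KANSL1 and TAP1 each have a copy on alternative contigs of the reference, and the part of such copies in a listed 0 was not tested. None of the 9 lineage genes matched any of the 261 alternative contigs over more than 50% of a coding transcript, and neither did LRP6. BGLAP shares 40.9% of its exon bases with the readthrough gene PMF1-BGLAP on the same strand, which was listed at 0, so that another way of counting could give BGLAP more reads.

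The promoters show where the lineage genes carry the core letters bound by RUNX factors. RefSeq starts on GRCh38.p14 were found for 7 of the 9 genes, with 10 promoters, and for SP7 and DLX5 no entry was found. The 250 bases before each start were searched on both strands for AACCACA, and 3 promoters held it, those of RUNX2 (its upstream start), SPP1 and BGLAP. Of all 35116 promoters searched in the same window, 3.65% held it. The stretches below are those of the 4 lineage genes that changed and of BGLAP, in lower case with the motif in capitals, and each ends where the GENCODE gene begins, except that RUNX2 is shown as the 30 bases around its match. They are chr6:45328231-45328260 for RUNX2, chr4:87975464-87975666 for SPP1 and chr1:156241934-156242183 for BGLAP, on the plus strand. Those without a match are chr1:21509173-21509396 for ALPL (the middle of its 3 starts), on the plus strand, and chr5:151686976-151687165 for SPARC, on the minus strand.
RUNX2: gtgaggtcacaAACCACAtgattctgcctc
SPP1: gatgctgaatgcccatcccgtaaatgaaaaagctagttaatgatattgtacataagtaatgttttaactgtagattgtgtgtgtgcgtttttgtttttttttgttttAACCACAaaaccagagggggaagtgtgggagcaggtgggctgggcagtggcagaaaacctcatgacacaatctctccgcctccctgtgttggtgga
BGLAP: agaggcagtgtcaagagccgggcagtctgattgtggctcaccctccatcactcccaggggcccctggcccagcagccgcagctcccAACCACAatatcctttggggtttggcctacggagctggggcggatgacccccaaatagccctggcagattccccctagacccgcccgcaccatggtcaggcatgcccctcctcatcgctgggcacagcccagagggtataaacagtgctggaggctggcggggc
ALPL: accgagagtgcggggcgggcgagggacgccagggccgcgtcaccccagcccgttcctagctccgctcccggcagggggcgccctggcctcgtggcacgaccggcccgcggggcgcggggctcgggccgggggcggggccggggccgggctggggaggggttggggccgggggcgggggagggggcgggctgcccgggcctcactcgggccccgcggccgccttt
SPARC: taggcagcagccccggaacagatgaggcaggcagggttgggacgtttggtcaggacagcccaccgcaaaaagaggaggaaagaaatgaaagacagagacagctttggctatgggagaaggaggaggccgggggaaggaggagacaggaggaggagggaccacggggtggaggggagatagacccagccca
The match began 88 bases before the start in RUNX2, 143 in SPP1 and 164 in BGLAP. The RUNX2 match lies inside the GENCODE gene, which begins upstream of the RefSeq start. The ALPL stretch is the most GC-rich, with 83.6% G or C over its whole window, against 44.8% for SPP1. The homeodomain core TAATTA, the same on both strands, was found only in the promoter of MSX2 among these 10, at 197 bases before its start, and in 4.35% of all promoters. A match is a description of letters, and no binding was measured.

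After DDX41 knockdown, RUNX2 and ALPL fell, and SPP1 and SPARC rose. These 4 of the 5 lineage genes tested passed an adjusted p under 0.01, against 62.4% of all tested genes, so a call by itself says little about the lineage genes. Each direction had 2 of them, against 30.3% of tested genes called higher and 32.1% called lower. The same 4 genes had CPM values that did not overlap between the groups, as did 55.9% of all tested genes. The median log2 fold change was 0.18 over the 5 lineage genes tested and -0.00 over all tested genes. In bulk RNA, fewer cells with a transcript and less of it in each cell cannot be told apart.

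RUNX2, the founding transcription factor of the osteoblast lineage (ENSG00000124813.20, chr6:45328157-45664349, plus strand), was lower after DDX41 knockdown. Control libraries 1 to 5 had 31.6, 32.2, 34.4, 32.7 and 31.2 CPM. DDX41 knockdown libraries 1 to 5 had 24.1, 26.1, 24.2, 24.2 and 24.4 CPM. Every DDX41 knockdown library was below every control library, and 4 of the 5 lay within a narrow band under library 2. The difference was 1.32-fold (log2 fold change -0.40, SE 0.04), with a BH-adjusted p of 2.24e-09 from edgeR's quasi-likelihood test. Among the 5178 genes called lower, 58.8% fell by more than RUNX2. The tested gene most like RUNX2 over the 10 libraries, by the root mean square difference of log2 CPM centred on the control mean, was SOS2 (0.0263).

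MSX2, a homeodomain factor of skull and limb progenitors (ENSG00000120149.8, chr5:174724582-174730896, plus strand), did not pass the test. Control libraries 1 to 5 had 4.25, 4.61, 3.62, 5.13 and 4.58 CPM, and DDX41 knockdown libraries 1 to 5 had 4.69, 4.78, 5.84, 5.37 and 4.64 CPM. The groups overlapped. Its log2 fold change was 0.19, with a BH-adjusted p of 0.0794 from edgeR's quasi-likelihood test. The 95% confidence interval of -0.01 to 0.40 holds both no change and a rise.

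SP7 (ENSG00000170374.5, chr12:53326575-53345315, minus strand) and DLX5 (ENSG00000105880.4, chr7:97020396-97024950, minus strand) were too low to compare. SP7 had 1 count each in control libraries 2 and 5 and in DDX41 knockdown libraries 3 and 4, and 0 in the others. DLX5 had 0 counts in all 10 libraries, which allows up to 0.0127 CPM, and so did its neighbour DLX6. No difference in either regulator was detectable at this depth.

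ALPL, the phosphatase that frees phosphate for mineral (ENSG00000162551.13, chr1:21509397-21578410, plus strand), was lower after DDX41 knockdown. Its level was 4.53, 6.29, 4.29, 4.62 and 5.33 CPM in control libraries 1 to 5. DDX41 knockdown libraries 1 to 5 had 2.71, 3.82, 2.90, 2.64 and 3.32 CPM. The groups did not overlap, and the lowest control library lay close above the highest DDX41 knockdown library. The difference was 1.63-fold (log2 fold change -0.70, SE 0.12), with a BH-adjusted p of 5.51e-06 from edgeR's quasi-likelihood test. It rests on 962 counts over the 10 libraries, and 33.6% of the genes called lower fell by more.

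SPP1, which encodes osteopontin (ENSG00000118785.13, chr4:87975667-87983532, plus strand), rose. Control libraries 1 to 5 had 21.0, 18.2, 18.5, 18.9 and 18.5 CPM. DDX41 knockdown libraries 1 to 5 had 32.2, 26.3, 31.4, 34.7 and 25.8 CPM. Every DDX41 knockdown library was above every control library, and the spread was wider after DDX41 knockdown (SD 3.88 against 1.16 CPM). The rise was 1.58-fold (log2 fold change 0.66, SE 0.08), with a BH-adjusted p of 6.88e-07 from edgeR's quasi-likelihood test. Among the 4890 genes called higher, 20.5% rose by more, and the tested genes most like SPP1 were CAV2 (root mean square difference 0.0695) and OGFRL1 (0.0713).

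SPP1 was the only gene of its chromosomal family with more than 3 counts in either group. It lies in a row with DSPP, DMP1, IBSP and MEPE, which encode related acidic phosphoproteins of bone and tooth, within 375 kb (chr4:87608529-87983532). SPP1 had 2285 counts in control and 3504 in DDX41 knockdown libraries. DSPP had 3 and 1 counts, DMP1 1 and 2, and MEPE 0 in both groups. IBSP (ENSG00000029559.6, chr4:87799554-87812435, plus strand) had 0 counts in control libraries and 1 count in DDX41 knockdown library 3. These counts are too few to show whether the neighbours rose with SPP1.

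SPARC (ENSG00000113140.10, chr5:151661096-151686975, minus strand) rose by a small amount from its high level. It was counted at 2833, 2750, 2816, 2812 and 2822 CPM in control libraries 1 to 5. DDX41 knockdown libraries 1 to 5 had 3068, 3210, 3103, 3212 and 3310 CPM. The lowest DDX41 knockdown library was above the highest control library. The rise was 1.13-fold (log2 fold change 0.18, SE 0.02), with a BH-adjusted p of 1.42e-07 from edgeR's quasi-likelihood test. Of the genes called higher, 84.2% rose by more, and the tested genes most like SPARC were TRIM4 (root mean square difference 0.0225) and RNF167 (0.0246). SPARC carried 97.9% of the summed CPM of the 9 lineage genes in control cells, so their sum, 2868 ± 32.6 CPM in control and 3244 ± 94.5 CPM in DDX41 knockdown libraries (SD, n = 5), follows SPARC alone.

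BGLAP, the osteocalcin gene (ENSG00000242252.1, chr1:156242184-156243317, plus strand), had 21 counts in all and was not in the fit. Control libraries 1 to 5 had 1, 4, 3, 2 and 1 counts, and DDX41 knockdown libraries 1 to 5 had 4, 3, 3, 0 and 0. The groups overlapped, at 0.0915 and 0.087 CPM. The difference of -0.00445 CPM did not pass (two-sided exact permutation test, p = 0.929), and its sign turned without control library 2 (0.0135 CPM) or 3 (0.00421 CPM) or DDX41 knockdown library 4 or 5 (0.0173 CPM each), so it gives no direction.

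For each of the 4 lineage genes called, an exact permutation test (two-sided, on log2 CPM) gave p = 0.00794, the smallest that 5 libraries against 5 allow. Groups that do not overlap always give this p, so it only restates their separation, which 55.9% of all tested genes showed.

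**Figure D2:**
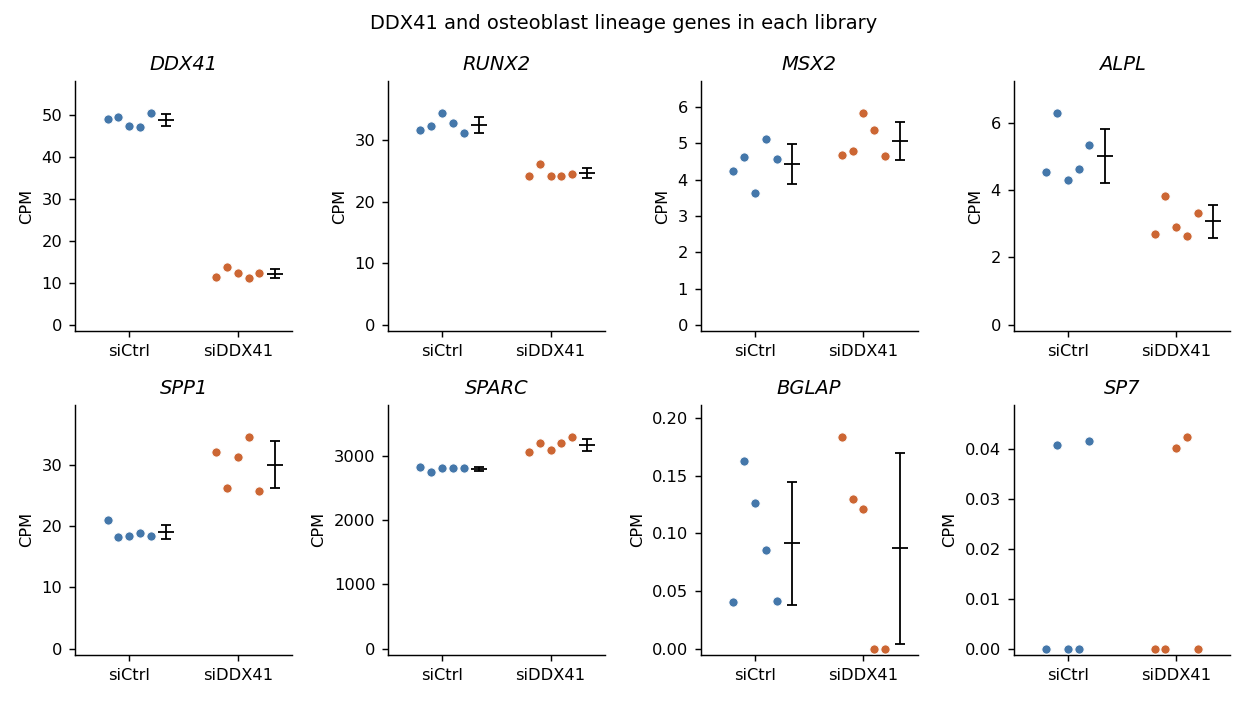
CPM of DDX41 and of the 7 lineage genes with more than 1 count, in each siCtrl (blue) and siDDX41 (orange) library, with mean and SD beside the points except for SP7. RUNX2 and ALPL are lower and SPP1 and SPARC higher in all 5 siDDX41 libraries, while the groups overlap for MSX2, BGLAP and SP7.

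None of the 5 lineage genes tested changed by a log2 fold change of 1 or more. That count was also 0 with an unadjusted p under 0.05 in edgeR and 0 with DESeq2. A looser p could not change it, as the log2 fold changes lay between -0.70 and 0.66. Of all tested genes, 6.08% were called lower and 2.54% higher by at least that much.

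Several companion genes of the osteoblast programme changed by more than any of the lineage genes. Of 63 such genes in 6 lists, 42 were tested, of which 11 rose, 22 fell and 9 did not pass, with a median log2 fold change of -0.20. Beside them, and beside each of the 6 lists, 30.3% of all tested genes rose and 32.1% fell. By a log2 fold change of at least 1, 6 companion genes fell (BGN, MGP, SERPINH1, PHEX, SFRP1 and ZNF521). ZNF521 lay at this limit, with a log2 fold change of -1.05 to -0.99 over the fits without 1 library and the value of -0.99 without DDX41 knockdown library 1. None rose by as much, with 0 also at an unadjusted p under 0.05 in edgeR and 0 with DESeq2. A looser p could not change this, as the highest log2 fold change was 0.79.

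Among the companion transcription regulators, 10 of 14 were tested, 2 rose and 7 fell (median log2 fold change -0.21). Of all tested genes, 62.4% were called, 30.3% higher and 32.1% lower. CBFB, the partner that RUNX proteins need for stable binding, rose from 122 ± 0.856 to 147 ± 6.35 CPM (SD, n = 5), a log2 fold change of 0.26. RUNX1, a relative of RUNX2, fell by 0.20 on the log2 scale and stood above RUNX2 per length in control cells, at 12.6 against 3.95 RPKM. MSX1, the relative of MSX2, rose from 5.22 ± 0.383 to 9.05 ± 0.992 CPM (SD, n = 5; log2 fold change 0.79, BH-adjusted p = 1.21e-09 by edgeR's quasi-likelihood test). SOX9, the regulator of cartilage fate, fell by 0.55 and ZNF521, a zinc finger factor of osteoblast precursors, by 1.02 on the log2 scale. RUNX2 and RUNX1 thus fell while their shared partner CBFB rose.

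Among the genes of bone matrix structure and collagen processing, 13 of 18 were tested, 4 rose and 6 fell (median log2 fold change -0.21). The shares over all tested genes were 30.3% higher and 32.1% lower. The small matrix proteoglycan gene BGN fell from 1.71 ± 0.21 to 0.35 ± 0.105 CPM (SD, n = 5), a log2 fold change of -2.27. MGP, whose product inhibits calcification, went from 1.76 ± 0.196 to 0.225 ± 0.092 CPM (SD, n = 5), a log2 fold change of -2.95, and both BGN and MGP started from low levels. SERPINH1, the collagen chaperone HSP47 of the endoplasmic reticulum, was abundant and fell from 527 ± 22.8 to 206 ± 8.59 CPM (SD, n = 5; log2 fold change -1.35, SE 0.03, BH-adjusted p = 5.12e-24 by edgeR's quasi-likelihood test). LOXL2, a lysyl oxidase that crosslinks collagen, rose by 0.51.

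The collagen gene itself did not pass the test. COL1A1 was at 1875 ± 100 CPM in control and 1766 ± 94.6 CPM in DDX41 knockdown libraries (SD, n = 5; log2 fold change -0.09, BH-adjusted p = 0.0551 by edgeR's quasi-likelihood test). Its adjusted p went to 0.0051 without the filter on low counts, to 0.00853 with the replicate number as a block and to 0.00891 without control library 4, over a range of 0.0051 to 0.141 across all alternatives. FN1 (fibronectin) had a log2 fold change of -0.21 and an adjusted p of 0.0211 by the same edgeR test, which went to 0.000929 without control library 2 and to 0.000252 without control library 3, over a range of 0.000252 to 0.0542.

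Among the genes of phosphate supply and mineralization, 7 of 9 were tested, 1 rose and 3 fell (median log2 fold change -0.07). ENPP1, which makes the mineral inhibitor pyrophosphate, fell by 0.46 on the log2 scale, and the vitamin D receptor gene VDR fell by 0.47. The phosphate importer SLC20A2 rose by 0.44, while SLC20A1 (log2 fold change -0.07) and the kinase gene FAM20C (0.09) did not pass. Of the osteocyte genes, 2 of 6 were tested and both fell, against 32.1% of all tested genes called lower. The membrane glycoprotein gene PDPN fell by 0.41 on the log2 scale. The phosphate regulator PHEX fell from 1.70 ± 0.192 to 0.553 ± 0.145 CPM (SD, n = 5).

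Among the signals to osteoclasts and hormone receptors, 5 of 8 were tested, 2 rose and 2 fell (median log2 fold change 0.06). TNFRSF11B, whose product osteoprotegerin traps the osteoclast signal RANKL, fell by 0.26 on the log2 scale, and TNFSF11, which encodes RANKL, had 0 counts in all 10 libraries. The growth factor gene CSF1 rose by 0.36 and the growth hormone receptor gene GHR by 0.48, while the glucocorticoid receptor gene NR3C1 fell by 0.14. IGF1R had a log2 fold change of 0.06 and an adjusted p of 0.0361 by edgeR's quasi-likelihood test, which went to 0.00817 with upper-quartile factors and to 0.00904 with DESeq2, over a range of 0.00817 to 0.0879.

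Among the WNT co-receptors and inhibitors, 5 of 8 were tested, 2 rose and 2 fell (median log2 fold change 0.03). The secreted WNT antagonist gene SFRP1 fell from 60.2 ± 1.95 to 16.1 ± 1.01 CPM (SD, n = 5; log2 fold change -1.91, BH-adjusted p = 1.14e-24 by edgeR's quasi-likelihood test). AXIN2, a feedback inhibitor and common readout of WNT signalling, fell by 0.84. The co-receptor genes LRP4 and LRP5 rose by 0.28 and 0.25.

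**Figure D3:**
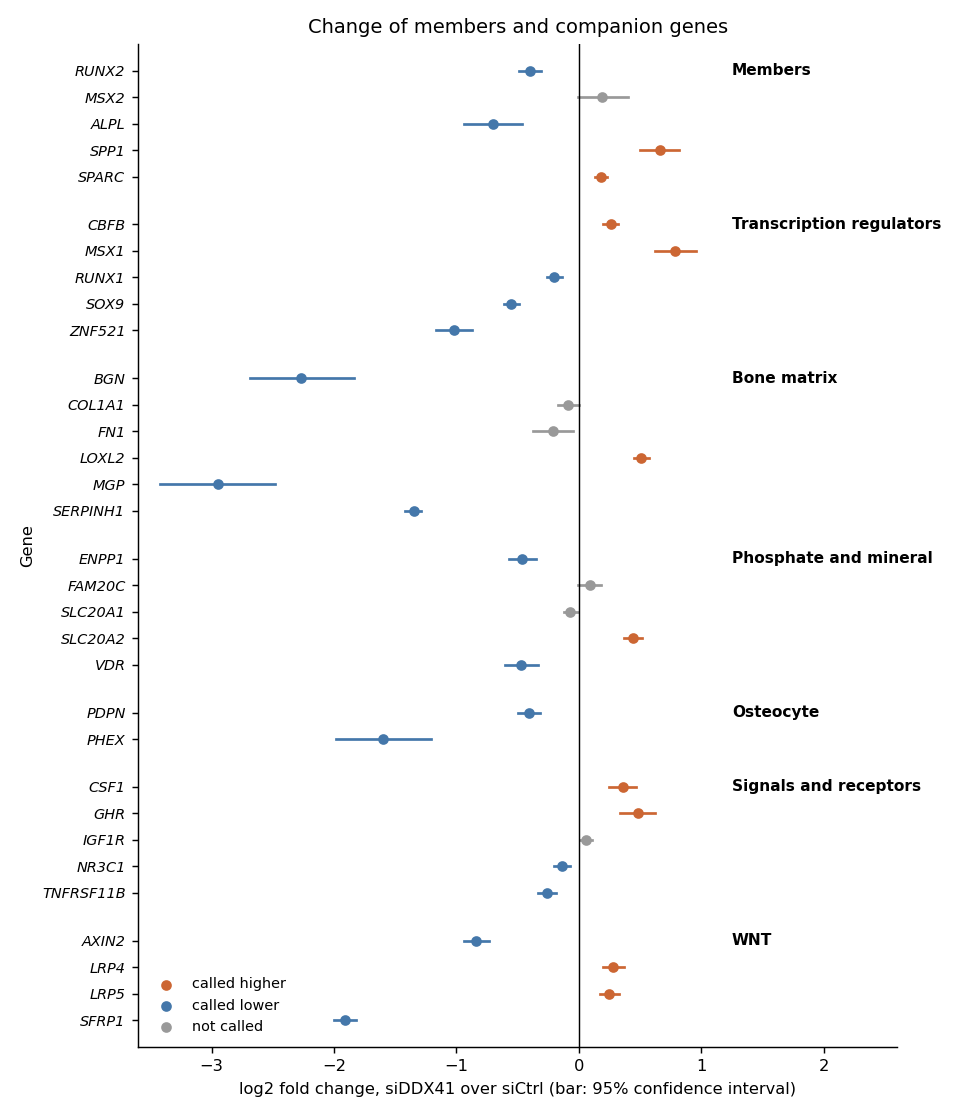
Log2 fold change, siDDX41 over siCtrl, with 95% confidence intervals for the 5 lineage genes tested and the named companion genes, coloured by call at an adjusted p under 0.01. BGN, MGP, SERPINH1, PHEX, SFRP1 and ZNF521 lie at or below -1.02, beyond all 5 lineage genes.

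Markers of other cell types were set beside the osteoblast genes as a check of the label. The mesenchymal list was high, with a summed level of 3146 ± 50.3 CPM in control libraries (SD, n = 5), of which VIM made up 78.4%. All 8 of its genes were tested, 2 rose and 6 fell, its sum after DDX41 knockdown was 2837 ± 36.9 CPM, and its log2 fold changes went from -1.47 (PDGFRA) to 0.88 (S100A4), with -0.09 for VIM and -0.74 for THY1. Of all tested genes, 62.4% were called. In the same control libraries the epithelial genes KRT18 and KRT8 were also high, at 145 RPKM (percentile 99.4) and 84.5 RPKM (percentile 98.7). EPCAM (3.29 RPKM), the chondrocyte gene ACAN (3.20 RPKM) and the adipocyte gene LPL (6.04 RPKM) stood above ALPL (1.68 RPKM). Each of these lists also held low genes. SP7, IBSP, DLX5 and BGLAP were at or near 0. CDH1 and KRT19 of the epithelial list stood at 0.144 and 0.107 RPKM. Of the chondrocyte list, COL2A1 stood at 0.249 RPKM, and COL9A1, COL10A1 and COMP at 0.00648 RPKM or lower. ADIPOQ of the adipocyte list had 0 counts. These levels alone do not set the osteoblast label apart from the epithelial, chondrocyte or adipocyte lists.

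The epithelial sum rose from between 998 and 1124 CPM in control libraries to between 1577 and 1772 CPM in DDX41 knockdown libraries, with 5 of 6 genes tested, 2 higher and 1 lower. Its most abundant genes were KRT8 (log2 fold change 0.46) and KRT18 (0.98), which share exon bases on opposite strands. KRT18 also matched 4 alternative contigs, over up to 50.2% of a transcript. Whether these are copies of the gene, and whether KRT18 is counted too low, was not tested. CLDN4, a tight junction gene of the list, went the other way, from 29.2 ± 2.30 to 13.3 ± 0.908 CPM (SD, n = 5; log2 fold change -1.13, BH-adjusted p = 1.39e-16 by edgeR's quasi-likelihood test), EPCAM and CDH1 did not pass, and KRT19, under the filter, had 30 counts in control and 4 in DDX41 knockdown libraries. The chondrocyte sum went from between 280 and 321 CPM to between 181 and 208 CPM, with 5 of its 6 tested genes lower. Of all tested genes, 30.3% were called higher and 32.1% lower. COL2A1 was only just under the threshold (adjusted p = 0.00976 by edgeR's quasi-likelihood test), and its groups overlapped. On the log2 scale SOX5 fell by 1.47, ACAN by 1.23, SOX6 by 0.98 and COL11A1, the most abundant gene of the list, by 0.59, and COMP had 2 counts in all. MATN3 did not pass (log2 fold change -0.07). COL10A1, under the filter, went the other way, with 3 counts in control and 19 in DDX41 knockdown libraries. The part of these lists in the changes of the lineage genes was not tested.

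The remaining lists had lower sums than the mesenchymal, epithelial and chondrocyte lists. Per length, the adipocyte genes LPL and PPARG stood at 6.04 RPKM (percentile 78.1) and 1.5 RPKM in control libraries. The adipocyte sum was 44.4 ± 1.17 CPM in control and 46.5 ± 1.30 CPM in DDX41 knockdown libraries (SD, n = 5), with PPARG higher by 0.33, LPL lower (log2 fold change -0.15) and ADIPOQ at 0 in all libraries. The endothelial sum went from 7.61 ± 0.113 to 3.68 ± 0.52 CPM (SD, n = 5). All 3 tested genes of this list were lower, among them VWF and TEK, against 32.1% of all tested genes. The skeletal muscle sum was 1.10 CPM in control and 0.25 CPM in DDX41 knockdown libraries, with DES lower, ACTA1 under the filter, and MYOG and MYF5 at 0. The osteoclast sum was 3.26 and 2.98 CPM, mostly CTSK, which did not pass, with ACP5 and CALCR under the filter. ACP5 had 39 counts in control and 21 in DDX41 knockdown libraries, whereas CALCR had 27 and 62. The leukocyte sum was 0.383 and 0.591 CPM, mostly PTPRC, which did not pass and has a copy on 1 alternative contig over 99% of a transcript, so it may be counted too low, with CD68 under the filter and CD3E at 0.

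**Figure D4:**
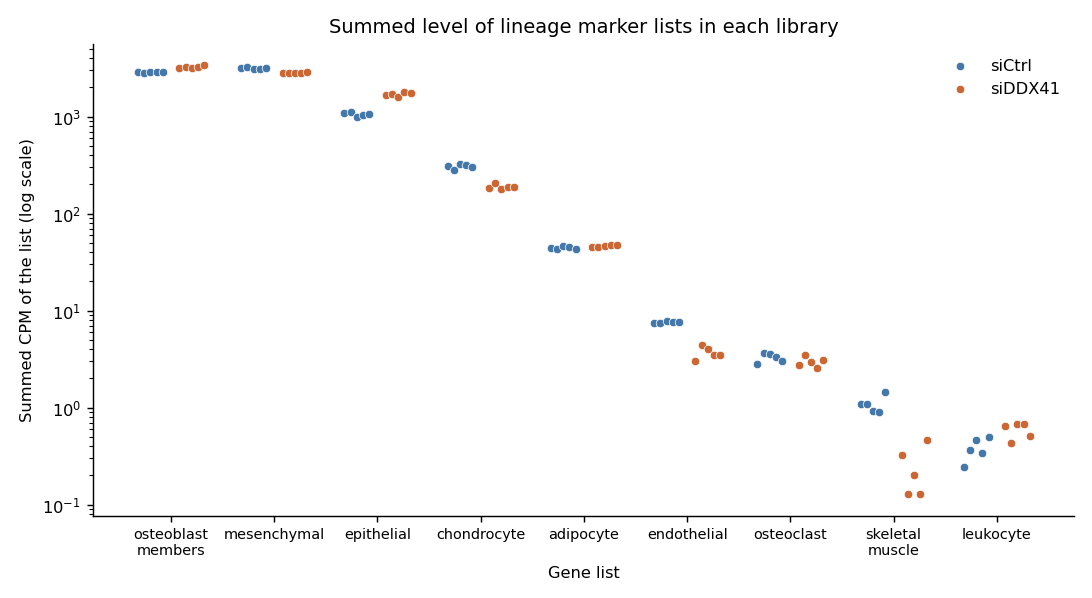
Summed CPM (log scale) of the 9 lineage genes and of 8 marker lists in each siCtrl (blue) and siDDX41 (orange) library. The sum is higher after DDX41 knockdown in all 5 libraries for the lineage genes and the epithelial list, and lower for the mesenchymal, chondrocyte, endothelial and skeletal muscle lists.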

How the data were processed

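The deposited values are read counts per gene, without normalization, of 1 library each. The authors made them from single reads of stranded polyadenylated RNA libraries, mapped to hg38 with STAR 2.7 and GENCODE 25 and counted with featureCounts 1.6. Whether strand was used in counting, and how multi-mapping reads were treated, is not given in the sources used here, so overlapping genes such as KRT8 and KRT18 are uncertain.

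Genes were named by Ensembl identifier without version from GENCODE 44 (98.7% of tested genes matched), which also gave exon lengths. Counts were tested in R 4.3.3 with edgeR 4.0.16 (filterByExpr, TMM, robust quasi-likelihood fit), with BH adjustment over 16143 genes and a threshold of 0.01, after a check on simulated counts. DESeq2 1.42.0, other scalings, no filter, another threshold, a fold minimum, a replicate block and leaving out each library were alternatives. Log2 CPM used a prior count of 2. Scripts ran in Python 3.11.15 with scipy 1.17.1, and minimap2 2.31-r1302 searched the alternative contigs, a search chosen after the data were seen. Promoters came from RefSeq (GRCh38.p14).

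The members and lists were chosen with earlier results of these data known. Named genes were the members, DDX41, companion genes with a log2 fold change of at least 1, the 3 of highest control RPKM and the 3 of smallest adjusted p in each companion list, the 2 of highest control CPM in each marker list, and the 2 genes most like each called member with a mean of at least 5 CPM. COL1A2, DSPP, DMP1, LRP6, KANSL1, TAP1, COMP, EPCAM, CDH1, CLDN4, KRT19, PDGFRA, S100A4, ACAN, SOX5 and the genes listed at 0 were named after their values were seen. MATN3, COL2A1, COL9A1, COL10A1 and CALCR were also named in that way. Some genes that the rule or the lists hold are not reported here.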

Additional observations from a re-analysis of the deposited data

Results flagged for a closer look

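In 4 of 66 groups of 5 libraries, over 33 genes, 1 library stood apart from the other 4 by a gap of over 0.71 of the group's range. Chance does this in about 1 in 20 groups. RUNX2 had 26.1 CPM in DDX41 knockdown library 2, where the others lay between 24.1 and 24.4 CPM. RUNX1 had 185 CPM in the same library, where the others lay between 166 and 169 CPM. SPP1 had 21 CPM in control library 1, where the others lay between 18.2 and 18.9 CPM. SPARC had 2750 CPM in control library 2, where the others lay between 2812 and 2833 CPM. In each case the library that stood apart remained on its own group's side of all libraries of the other group.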

How the results depend on the processing

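RUNX2, ALPL, SPP1 and SPARC kept their direction and their adjusted p under 0.01 with other size factors, upper-quartile factors, DESeq2, no filter on low counts, the replicate block, and each library left out. Over the fits without 1 library, the log2 fold change of RUNX2 lay between -0.42 and -0.38, of ALPL between -0.79 and -0.61, of SPP1 between 0.60 and 0.71 and of SPARC between 0.17 and 0.20. MSX2 did not pass in any of these fits (adjusted p 0.0336 to 0.246). Of 480 values over 32 named genes and these alternatives, 473 stayed on the same side of the threshold in the same direction and 7 passed it, those of COL1A1, FN1 and IGF1R given in the report; the cause was not tested.

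With a log2 fold change of at least 1 required, 410 genes were called up and 982 down, with 0 lineage genes in either direction and 0 companion genes up and 6 down. Over the other alternatives, between 20 (upper-quartile factors) and 25 (no filter on low counts) companion genes were called down, and 11 or 12 up. The difference of BGLAP lay between -0.0287 and 0.0173 CPM without 1 library, and it turned positive without control library 2 (0.0135) or 3 (0.00421) or DDX41 knockdown library 4 or 5 (0.0173 each). With a replicate block in the fit, 4790 genes were called up and 5097 down, with 2 lineage genes in each direction. Deviations of same-numbered libraries correlated between -0.0524 and 0.0446 over all tested genes. The labels do not say whether same-numbered libraries were made together, and such a correlation cannot exclude it. With the length of the longest transcript, RUNX2 stood at 5.51 RPKM, SPP1 at 4.68 and SPARC at 813. Scaling moved the median of all genes by at most 0.02 on the log2 scale. At this depth no difference was detectable in SP7, IBSP, DLX5 or BGLAP.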
